A study of Drosophila melanogaster with 15 samples.

Results

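In the RNA of male Drosophila SL2 cells, 162 X-linked genes were at least 1.5-fold lower after RNA interference (RNAi) against MSL2 and were not lowered that far after RNAi against CLAMP. They were chosen by those ratios from 1258 X-linked genes that could enter the choice, out of 15139 genes in the deposited tables. A gene entered if its mean level over the 3 messenger RNA libraries was at least 1 RPKM (reads per kilobase of transcript, scaled to the library total), and its most-read transcript stood for it. Each ratio was the log2 of RPKM plus 0.1 in the knockdown library over RPKM plus 0.1 in the control library. Genes with CR identifiers, which are mostly noncoding, and 3 other genes were left out. Of the 2171 X-linked genes that remained, 913 lay below the level limit and were not considered. Before any gene was left out, 171 X-linked genes at or above the level limit met both criteria. Of these 9 were left out, 6 of them with CR identifiers.

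SL2 is a cultured line of male embryonic origin with features of blood cells. One library came from cells given a control RNAi, whose target the labels do not name, one from cells given CLAMP RNAi and one from cells given MSL2 RNAi, each for 6 days at 25 °C. No other genotype or agent is named in the labels, and nothing is said of separate cultures. The other 12 samples of the series, chromatin immunoprecipitates of CLAMP and their inputs from SL2 and the female line Kc, were not analysed here.

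Male flies carry a single X and raise its output by dosage compensation. The male-specific lethal (MSL) complex, whose subunit MSL2 is made in males, binds along active X-linked genes, and its subunit MOF acetylates histone H4 there. The noncoding roX RNAs are part of the complex, and CLAMP is a zinc finger protein that binds GA-rich sequence at the sites from which the complex spreads.

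Each group is a single library, so the spread between replicates is unknown for every difference given here and no p-value was computed. Library totals lay between 67844405 and 68301197. Both knockdowns were visible in their targets: msl-2 read at 0.260 of control after MSL2 RNAi (exact 95% counting interval 0.245 to 0.276) and Clamp at 0.299 after CLAMP RNAi (0.288 to 0.311). All 8 blood cell markers were read in control, from NimC1 at 4.27 RPKM to SPARC at 2013 RPKM. The neuronal gene nSyb, the germline gene vas and the muscle gene Mhc had 9, 10 and 8 reads. The other neuronal marker looked at, elav, had 1626 reads and 8.25 RPKM in control, above NimC1. The log2 ratios of the 8 blood cell markers ran from −0.61 (He) to 0.95 (Hml) after MSL2 RNAi. After CLAMP RNAi they ran from −0.88 (He) to 1.40 (Pxn). Their part in the results was not tested.

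The values that chose the genes are a description and carry no test. The median level of the 162 genes was 17.9 RPKM in control, 16.03 with CLAMP RNAi and 10.5 with MSL2 RNAi. Among the other 1096 X-linked genes the same medians were 21.1, 20.3 and 17.3 RPKM. In bulk RNA, fewer cells of a type and less RNA per cell cannot be told apart. The log2 ratio of the selected genes after MSL2 RNAi ran from −1.69 to −0.59 with a median of −0.68, beside a median of −0.33 over all 1258 X-linked genes and 0.03 over 6055 genes of arms 2L, 2R, 3L and 3R. Both criteria were met by 12.9% of the X-linked genes and by 2.06% of the autosomal ones. At least 1.5-fold lower after MSL2 RNAi, whatever the CLAMP ratio, were 14.1% of X-linked, 3.19% of autosomal and 5.32% of all tested genes. The same fold after CLAMP RNAi was passed by 2.62% of X-linked genes.

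Most of the 162 genes lay close to the limit. Only 10 were 2-fold lower (1.35% of the X-linked and 0.975% of all tested genes passed that fold), and 95 had a log2 ratio above −0.7. Within 0.05 log2 units of the limit stood 53 selected genes on the inside and 57 X-linked genes on the outside. Just inside were TH1, ND-ASHI and CG42346, each at −0.59, and just outside were CG9921, fliI and Mrgn1, each at −0.58. The limit therefore cuts through a continuous spread of X-linked genes. On the side of CLAMP, the nearest inside were SkpC, sdk and Tim9a, at log2 ratios after CLAMP RNAi of −0.57, −0.57 and −0.56. CG3568, CG12714 and Rph lay just outside, at −0.59, −0.60 and −0.63.

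**Figure D1:**
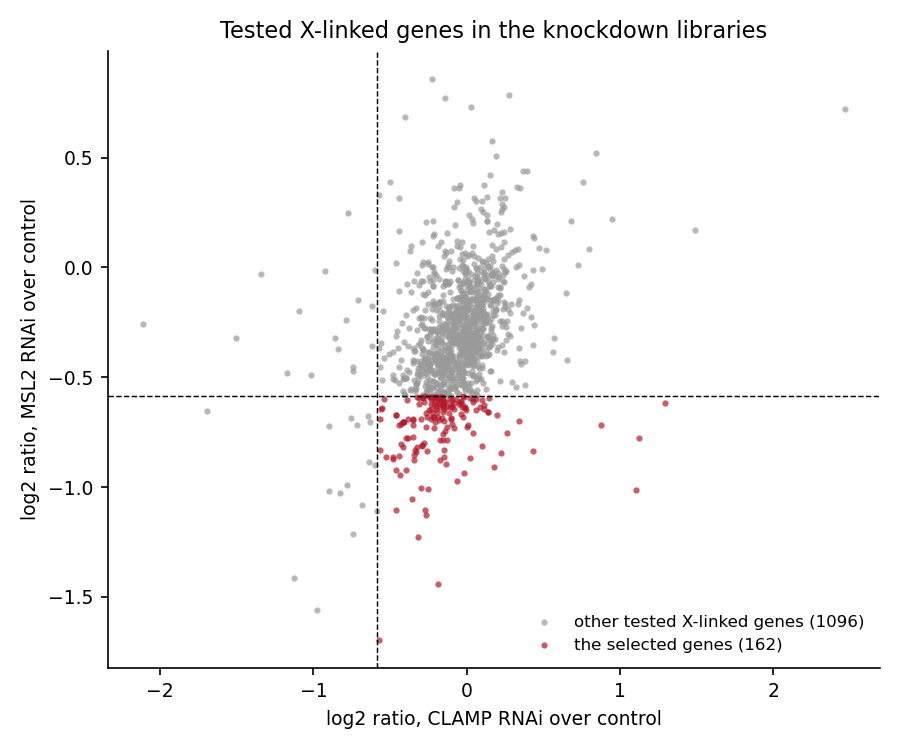
Log2 ratio to control after MSL2 RNAi (vertical) against that after CLAMP RNAi (horizontal) for 1258 X-linked genes, 1 point per gene, with the 162 selected genes in red and dashed lines at the 1.5-fold limits. The red points fill the lower right corner, most of them close to the horizontal line, and 3 of them lie above 1 on the horizontal axis.

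"Not lowered by CLAMP RNAi" covered a range of values. The log2 ratio after CLAMP RNAi had a median of −0.18 in the selected genes and −0.04 in the other X-linked genes, and it was below 0 for 135 of 162 against 58.8% of the others. Both ratios use the same control library, so a gene read high in control has lower values in both. With 1 control library this cannot be told apart from a lowering after CLAMP RNAi, and it was not tested. The counting interval of the CLAMP RNAi read ratio lay wholly below 1 for 109 of the selected genes, held 1 for 38 and lay above 1 for 15. For 22 genes the CLAMP ratio was −0.4 or lower. These intervals and this count were made for the selected genes only. No share of the other X-linked genes stands beside them, so they do not set the selected genes apart. Only 4 genes were at least 1.5-fold higher after CLAMP RNAi, a fold passed by 1.11% of the X-linked and 1.5% of all tested genes.

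Set directly against the CLAMP RNAi library, which leaves the control out, the MSL2 RNAi library was lower for all 162 genes. The median log2 ratio of MSL2 RNAi over CLAMP RNAi was −0.51 in the selected and −0.24 in the other X-linked genes. This log2 ratio is the difference of the log2 ratios that chose the genes. Its direction follows from the choice and its size is shaped by it, so the shares given next are a description only. By this ratio 58 of the 162 were at least 1.5-fold lower (35.8%), a fold passed by 7.39% of X-linked and 3.62% of all tested genes. At the other end, Ptp10D, Tlk and Agpat1 differed little between the knockdown libraries, with log2 ratios of −0.06, −0.08 and −0.09. For Agpat1 the counting interval of that read ratio held 1, and it was the only such gene of the 162.

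Counting error alone was small for most of the genes. The control reads per gene ran from 38 to 66740 with a median of 3635.5, and 125 genes had at least 1000. The interval of the MSL2 RNAi read ratio lay wholly past the 1.5-fold limit for 89 genes and reached across it for 73. On the CLAMP side, 148 genes had an interval wholly short of the limit. Taking both together, 80 genes were clear of both limits by counting error, which says nothing of the spread between cultures. The reads in these intervals are the ones that chose the genes. These counts therefore describe the choice and give it no support. Read intervals treat every read as independent.

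Among genes with a mean of at least 5 RPKM, the 15 lowest after MSL2 RNAi began with CG7267, now part of CG44325, which had 70.4 RPKM in control, 56.4 with CLAMP RNAi and 30.0 with MSL2 RNAi. CG32687 followed with 36.5, 30.4 and 16.7 RPKM. The third was out (outsiders), a gene of the monocarboxylate transporter family, with 16.8, 13.9 and 7.77 RPKM. In all 3 the MSL2 RNAi library was far below the others and the CLAMP RNAi library slightly below control. Their read ratios after MSL2 RNAi were 0.426 (0.399 to 0.455), 0.456 (0.436 to 0.478) and 0.462 (0.434 to 0.491).

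Next in that order came Mct1, another monocarboxylate transporter gene, which was above control in one knockdown library and below it in the other, at 37.3, 80.1 and 18.4 RPKM in control, CLAMP RNAi and MSL2 RNAi. The gene mud, which encodes a spindle orientation protein related to NuMA, read at 17.2, 14.0 and 8.53 RPKM in the same order. For sun, which encodes the epsilon subunit of ATP synthase, the levels were 19.0, 18.2 and 9.67 RPKM. Control and CLAMP RNAi were thus near each other for sun, further apart for mud and reversed in order for Mct1. The remaining genes of the 15 were CG34015, sordd1, Syx4, shi, CG1998, Rbcn-3B, CG15816 (now raskol), CG13004 and HUWE1, with log2 ratios from −1.01 to −0.86. CG34015 rests on 285 control and 140 MSL2 RNAi reads.

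**Figure D2:**
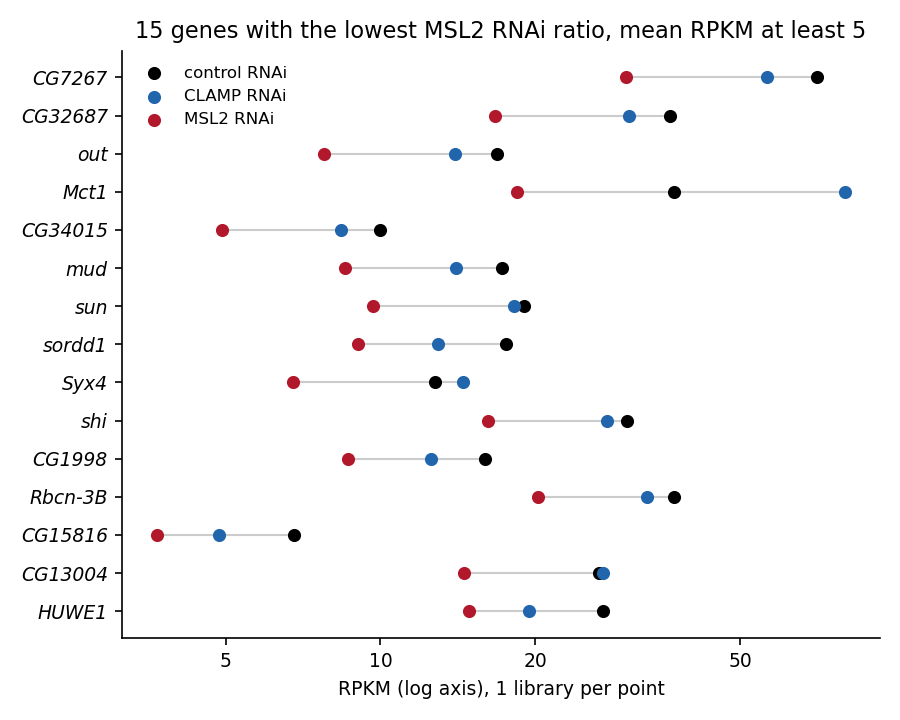
RPKM on a log axis in the control RNAi (black), CLAMP RNAi (blue) and MSL2 RNAi (red) libraries for the 15 selected genes with the lowest MSL2 RNAi ratio and a mean of at least 5 RPKM, 1 library per point. The red point is the lowest in every row, as the choice requires. The blue point lies between the others or near the black one except for Mct1 at 80.1 RPKM and Syx4 at 14.5 RPKM.

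Some genes below 5 RPKM on average had lower ratios still. SkpC, a gene of the Skp1 family of ubiquitin ligase adaptors, had 241 reads in control, 162 with CLAMP RNAi and 72 with MSL2 RNAi. Its read ratio after MSL2 RNAi, with a counting interval of 0.227 to 0.391, was the lowest of the 162 genes, and its CLAMP ratio was the nearest to the limit. Ten-a, which encodes a teneurin, a transmembrane protein of synaptic partner recognition, had 5345, 4700 and 1912 reads. Its log2 ratios were −1.44 after MSL2 RNAi and −0.19 after CLAMP RNAi, so it combines a low MSL2 value with a CLAMP value near the median of the selected genes.

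By role, in lists written with earlier results of these data known, 27 of 234 X-linked genes in any list were among the selected, or 11.5%, near the 12.9% of all X-linked genes. Membrane traffic gave 5 of 27 genes and ubiquitin, proteolysis and folding 5 of 20. Signalling gave 5 of 48, chromatin and transcription 5 of 46, metabolism and transport 3 of 30, cytoskeleton and adhesion 2 of 23, RNA processing and translation 1 of 32, and cell cycle and repair 1 of 16. The median log2 ratios after MSL2 RNAi of these lists lay between −0.42 and −0.30, around the −0.33 of all X-linked genes, and after CLAMP RNAi between −0.16 and −0.01. The chromatin count includes cin, a gene of molybdenum cofactor synthesis that the list holds in error. No list is called apart from the rest by these counts. The genes of each role described next go beyond those lists and were grouped after their values were seen. Those groups are picked and not complete. Their gene counts are therefore not totals for a role, and no share of X-linked genes was computed for them.

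The vesicle traffic group held 12 genes, with log2 ratios after MSL2 RNAi from −0.91 to −0.60. Chc, the clathrin heavy chain gene, had 170 RPKM in control, 152 with CLAMP RNAi and 110 with MSL2 RNAi, and with 66740 control reads it was the most counted of the 162 genes. MSL2 RNAi gave a read ratio of 0.649 (0.641 to 0.657), and CLAMP RNAi gave 0.897 (0.887 to 0.907). The dynamin gene shi, whose product pinches clathrin-coated vesicles off the membrane, had 30.2, 27.5 and 16.2 RPKM. For Syx4, which encodes a syntaxin of the plasma membrane, the levels were 12.8, 14.5 and 6.75 RPKM. All 3 were lowest after MSL2 RNAi, as the choice requires, and Syx4 alone among them was highest after CLAMP RNAi.

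Both subunit genes of Rabconnectin-3, a regulator of the proton pump of endosomes, were in this group. Rbcn-3B read at 37.2 RPKM in control, 33.03 with CLAMP RNAi and 20.2 with MSL2 RNAi, and Rbcn-3A at 33.7, 26.4 and 19.6. Their log2 ratios after MSL2 RNAi were −0.88 and −0.77. Gmap, a Golgi microtubule-associated protein gene, stood at −0.78 and Sec16, which organises exit sites of the endoplasmic reticulum, at −0.65. The AP-3 adaptor subunit gene rb, the Scamp gene, the translocon subunit gene Sec61gamma, the small GTPase gene Arfrp1 and SWIP of the WASH complex completed the group, at −0.62, −0.66, −0.60, −0.64 and −0.69.

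The group of ubiquitin transfer, proteolysis and autophagy held 13 genes. HUWE1, a very large ubiquitin ligase gene, had 27.1 RPKM in control, 19.4 with CLAMP RNAi and 14.8 with MSL2 RNAi. Ubr1, the ligase of the N-end rule pathway, had 38.6, 31.5 and 22.0 RPKM. Atg8a, a ubiquitin-like protein of autophagosome membranes, had 152, 119 and 93.9 RPKM. In each of the 3 the CLAMP RNAi library lay between control and MSL2 RNAi, with log2 ratios after CLAMP RNAi of −0.48, −0.29 and −0.35. The ligase genes HERC2 and ari-1, the conjugating enzyme gene CG2924, the SUMO protease gene Ulp1 and shtd, a subunit of the anaphase-promoting complex, had log2 ratios after MSL2 RNAi from −0.70 to −0.59. The carboxypeptidase gene svr stood at −0.79. SkpC belongs here too.

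Ubr3, another ligase gene, is represented by 2 older gene models, which are not independent. CG1530 had log2 ratios of −0.64 after MSL2 RNAi and 0.11 after CLAMP RNAi, and CG1531 had −0.60 and −0.23. The potassium channel subunit gene Hk likewise appears as CG32688 (−0.81 and −0.29) and CG34319 (−0.59 and −0.24). Other pairs had identical reads and transcript lengths in every library: cin, a gene of molybdenum cofactor synthesis, with CG42376 (2577, 1873 and 1606 reads), and sloth1 with sloth2 (293, 324 and 184 reads). The 162 identifiers thus stand for 160 current loci and for 160 distinct sets of reads. The locus count merges the models of Ubr3 and those of Hk. The count of read sets instead merges cin with CG42376 and sloth1 with sloth2. CG32582 and CG15345 are now annotated as a long noncoding RNA and a pseudogene.

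The transcription and chromatin group held 14 genes, with log2 ratios after MSL2 RNAi from −0.82 to −0.59. The lowest was nej, the CREB-binding protein gene and a histone acetyltransferase, with 18924 reads in control, 15184 with CLAMP RNAi and 10665 with MSL2 RNAi. The histone H3 lysine methyltransferase gene G9a had 7.76, 5.69 and 4.68 RPKM. Spt6, a histone chaperone of elongating RNA polymerase, had 37.6, 36.5 and 24.6 RPKM. For nej and G9a the CLAMP RNAi value was between the others, whereas for Spt6 it was close to control. TH1, a subunit gene of the negative elongation factor, the TBP-related factor gene Trf2 and the kinase gene Tlk stood at −0.59, −0.69 and −0.64. Among sequence-specific factors, exd had a log2 ratio of −0.68, Smox, the Smad of activin signalling, −0.63, NFAT −0.63, Usf −0.64 and ewg −0.60. NFAT and Usf were near control after CLAMP RNAi, at 0.11 and −0.01.

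The 12 genes grouped under kinase, phosphatase and small GTPase signalling had log2 ratios from −0.82 to −0.59 after MSL2 RNAi. LIMK1, which encodes the kinase that inactivates cofilin, had 28.6 RPKM in control, 21.5 with CLAMP RNAi and 16.2 with MSL2 RNAi. The SHP2-type phosphatase gene csw had 2759, 2785 and 1660 reads. For the phospholipase C gamma gene sl, the levels were 14.2, 10.5 and 8.63 RPKM. After CLAMP RNAi, csw was at the control level and the others were lower. Small GTPases and their regulators were RhoGAP15B (−0.71), vap, a RasGAP (−0.62), C3G, an exchange factor for Rap (−0.59), and the GTPase gene Rala (−0.59). The receptor phosphatase gene Ptp10D had 13.0, 8.89 and 8.53 RPKM, so its knockdown libraries were near each other and both below control.

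The mitosis, checkpoint and cytoskeleton group held 9 genes. Besides mud they included mei-41, the ATR checkpoint kinase gene, with 7.40 RPKM in control, 6.70 with CLAMP RNAi and 4.37 with MSL2 RNAi. The kinetochore gene Ndc80 had 27.2, 22.6 and 17.1 RPKM. The actin-bundling gene Fim had 114, 104 and 68.6 RPKM. MSL2 RNAi was the lowest library in each, as the choice requires. The counting interval of its ratio to CLAMP RNAi lay below 1, as for 161 of the 162 genes. The log2 ratios after MSL2 RNAi were −0.59 for Arp2, an actin-nucleating protein gene, −0.59 for Mlc-c, a light chain of nonmuscle myosin, −0.64 for Elys, a nuclear pore assembly gene, −0.65 for Kap3 and −0.73 for pigs.

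The mitochondrial group held 5 genes. UQCR-14, a subunit gene of respiratory complex III, had the highest mean level of all 162 genes. It read at 264 RPKM in control, 264 with CLAMP RNAi and 168 with MSL2 RNAi. Its CLAMP RNAi read ratio was 0.999 (0.970 to 1.03). ND-ASHI, a complex I subunit gene, was also near control there, at a log2 ratio of −0.02. Tim9a, a chaperone gene of protein import, was not, with 679 reads in control, 460 with CLAMP RNAi and 379 with MSL2 RNAi. The carrier gene Slc25A46a had log2 ratios of −0.60 after MSL2 RNAi and −0.18 after CLAMP RNAi.

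The lipid and membrane transport group held 9 genes, with log2 ratios after CLAMP RNAi from −0.55 to 1.10. The ethanolamine kinase gene eas had 26.8 RPKM in control, 31.4 with CLAMP RNAi and 14.9 with MSL2 RNAi. The sphingosine kinase gene Sk1 had 5.87, 5.81 and 3.02 RPKM, and CG2913, now yin, a peptide transporter gene, had 96.8, 104 and 55.0. PIG-Q and Agpat1, genes of GPI anchor and phosphatidic acid synthesis, were lower after CLAMP RNAi, at −0.53 and −0.55. The diacylglycerol lipase gene inaE was at −0.20, and the transporter gene out, which the group does not hold, at −0.27. The phosphatidylinositol synthase gene Pis was at −0.03, and the ABC transporter gene Abca3 at 0.04.

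**Figure D3:**
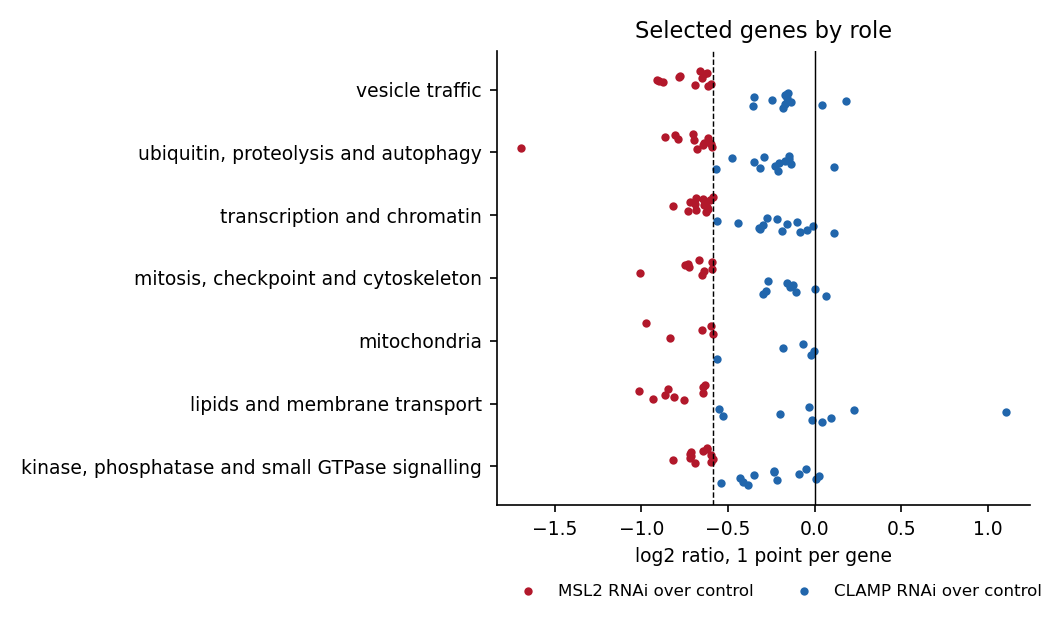
Log2 ratio to control after MSL2 RNAi (red) and CLAMP RNAi (blue) for the selected genes in 7 role groups of 5 to 14 genes, 1 point per gene; the dashed line is the 1.5-fold limit. All red points lie at or left of the dashed line and all blue points right of it, as the choice requires, and the blue points of most groups lie left of 0.

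At least 1.5-fold higher than control after CLAMP RNAi were 4 of the 162 genes, a fold passed by 1.11% of X-linked genes. Above control by any amount were 27, and 135 were below it, as were 58.8% of the other X-linked genes. Arginase (arg) had 576 reads in control, 1429 with CLAMP RNAi and 371 with MSL2 RNAi. CG4829 had 22518, 49255 and 13100 reads, and Mct1 had 7485, 16154 and 3689. The read ratios after CLAMP RNAi were 2.47 (2.24 to 2.73), 2.18 (2.14 to 2.21) and 2.15 (2.09 to 2.21). These 3 genes were thus above control with one knockdown and below it with the other. The fourth, CG15343, rests on 49, 94 and 28 reads. Smaller excesses included CG8557, at a log2 ratio of 0.43 with CLAMP RNAi, and orion, which encodes a chemokine-like protein. The levels of orion were 138, 159 and 86.8 RPKM (log2 ratios of 0.20 with CLAMP RNAi and −0.67 with MSL2 RNAi).

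The most abundant genes of the set were UQCR-14, CG15209, Chc, CG4829, orion, Mlc-c, CG9917 and Atg8a, and their log2 ratios after MSL2 RNAi ran from −0.78 to −0.59. CG15209 had 253 RPKM in control, 260 with CLAMP RNAi and 166 with MSL2 RNAi. CG9917 had 148, 129 and 91.0 RPKM. At the other extreme 24 genes had less than 5 RPKM in control. The share of X-linked genes selected was 19.0% in the lowest of 5 bins of mean level and 9.13% in the highest. The autosomal share meeting both criteria was likewise largest in the lowest bin, at 4.77% against 0.602% in the highest.

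Transcript length entered the choice through RPKM and through the pick of the most-read transcript, which was the longer one where reads were equal. The lengths compared here are those of the transcripts so picked. The median length was 2619.5 bases in the selected genes and 2015.5 in the other X-linked genes. Transcripts of at least 4000 bases made up 32.7% of the selected and 14.4% of the others, and those under 1000 bases 14.2% and 14.9%. Divided into 5 bins with equal numbers of X-linked genes, the longest bin (3645 to 16166 bases) had 57 selected of 251, or 22.7%, and the other bins between 9.56% and 11.5%. HERC2 and HUWE1 had the longest transcripts, with 15796 and 15782 bases.

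Autosomal genes of the longest bin were also lower than other autosomal genes. Their median log2 ratio after MSL2 RNAi was −0.08, against 0.02 to 0.08 in the shorter bins, and after CLAMP RNAi −0.10, against −0.06 to −0.02. The X-linked median minus the autosomal median after MSL2 RNAi was −0.35 in the longest bin and between −0.37 and −0.31 in the others. In MSL2 RNAi over CLAMP RNAi it was −0.35 in the longest bin and between −0.36 and −0.34 elsewhere. The larger share of long transcripts among the selected genes thus came with lower MSL2 RNAi ratios of long transcripts on the X and on the autosomes, while the distance between X and autosomes was about the same at each length.

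**Figure D4:**
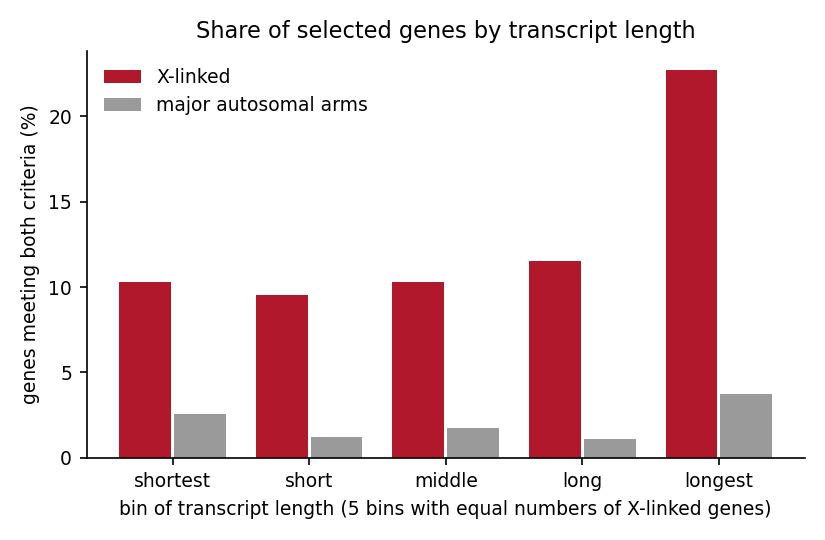
Percentage of tested genes meeting both criteria (at least 1.5-fold lower after MSL2 RNAi and not after CLAMP RNAi) in 5 bins of transcript length, for X-linked genes (red) and genes of the major autosomal arms (grey). The longest bin has the highest share in both classes, 22.7% on the X and 3.76% on the autosomes.

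Isoforms of the same gene share reads and are not independent, but their ratios can still differ. Of the 162 genes, 69 had several transcripts in the tables (42.6%, against 32.8% of the other X-linked genes). They had 226 transcripts with at least 1 RPKM on average, and 204 of those were at least 1.5-fold lower after MSL2 RNAi. The 204 include the most-read transcript of each of the 69 genes, which passes by the choice. No such count was made for the other X-linked genes, so it does not set the selected genes apart. Every transcript passed the limit in 56 genes and some did not in 13. The gap between the highest and the lowest log2 ratio of a gene had a median of 0.02 and was under 0.1 for 62 genes. It was widest for svr, whose 8 transcripts ran from −1.18 to −0.67, and for Pis, whose transcripts stood at −1.02 and −0.63. In svr the transcripts of 3132 and 3143 bases had the lowest ratios, at −0.996 and −1.18. These 2 genes, chosen after their values were seen, were the only ones with a gap of at least 0.3.

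Along the X the selected genes were spread over the whole chromosome. The 1238 tested loci were put in the order of the Release 6 annotation and divided into 10 stretches of 123 or 124 loci. In 9 of the stretches between 8.06% and 14.6% of the loci were selected. The eighth stretch had 33 of 124, or 26.6%, and a median log2 ratio after MSL2 RNAi of −0.44 over all its loci, beside −0.38 to −0.26 in the others. It was singled out after its values were seen. Its non-selected loci had a median of −0.35 after MSL2 RNAi, against −0.29 in the other stretches, and −0.07 against −0.03 after CLAMP RNAi. Median transcript length was 2028 bases there and 2072.5 elsewhere, and among loci with transcripts of up to 3636 bases the selected share was 25.5% there and 8.62% elsewhere. Genes of this stretch include Chc, shi, sun, exd, eas, UQCR-14, Dsp1, sl, mei-41, TH1, Arp2, CG4829 and Ubr1.

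Next to another selected locus stood 44 of the 160 selected loci, or 27.5%. The 44 include cin with CG42376 and sloth1 with sloth2, neighbours that share their reads. Of the 1078 other loci, 245 or 22.7% had a selected neighbour. Those 245 had a median log2 ratio after MSL2 RNAi of −0.33, and the remaining loci −0.28. The longest run of selected neighbours was 5 loci near the start of the gene order: G9a, CG42376, cin, ewg and y, the pigmentation gene yellow. CG42376 and cin share their reads, so this run holds 4 separate measurements, with log2 ratios of −0.72, −0.67, −0.60 and −0.68. The RPKM of y was 3.80 in control, 3.38 with CLAMP RNAi and 2.33 with MSL2 RNAi. Runs of 3 were svr, elav and arg, then eas, CG32576 and UQCR-14, and then RhoGAP15B, CG13000 and Ubr1. In the first of these, svr and elav were slightly below control after CLAMP RNAi, at −0.17 each, and arg was far above it. The gene elav, known for its RNA-binding protein in neurons, read at 8.25 RPKM in control, although nSyb was near 0.

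**Figure D5:**
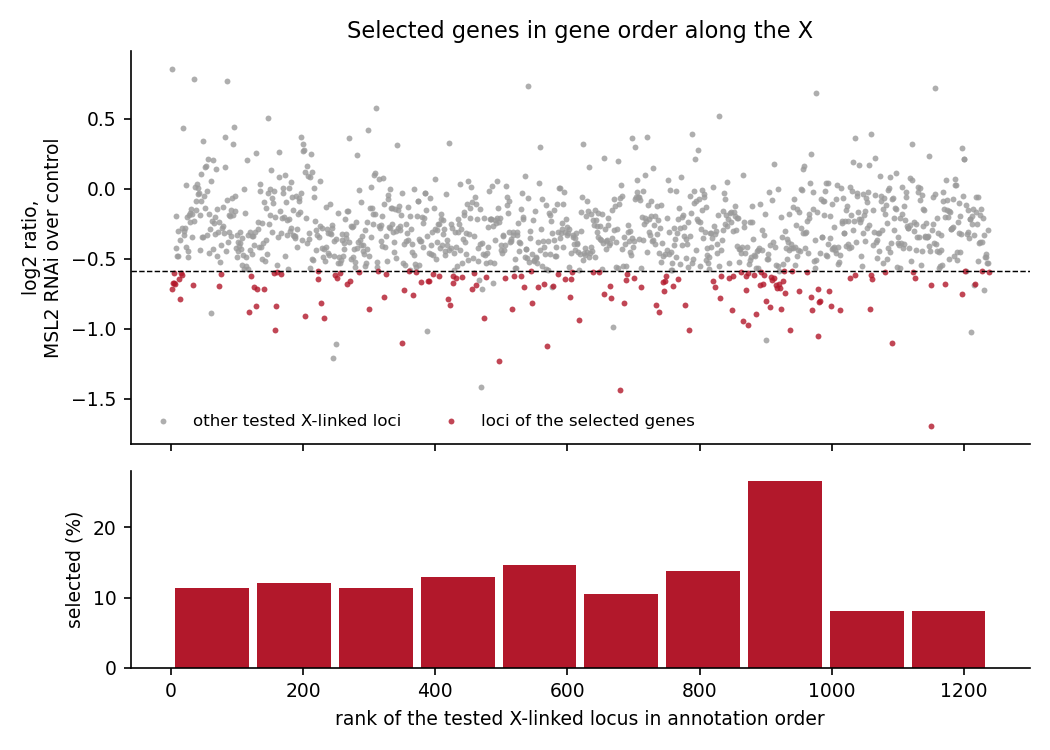
Upper panel: log2 ratio after MSL2 RNAi over control of 1238 tested X-linked loci in annotation order, with the 160 selected loci in red and the 1.5-fold limit dashed. Lower panel: percentage of loci selected in each of 10 stretches; the eighth stretch reaches 26.6% and the others stay between 8.06% and 14.6%.

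Several selected genes encode subunits of complexes that also have subunits encoded on autosomes. For 12 such genes, 38 autosomal partner genes were listed after the selected genes were known. None of the 38 was 1.5-fold lower after MSL2 RNAi, a count near the background, since 3.19% of autosomal genes were. Some of these complexes have further X-linked subunits that were not among the selected genes. Their log2 ratios after MSL2 RNAi were −0.58 and −0.34 for g and cm of AP-3, −0.42 for NELF-B, and −0.40 and −0.39 for APC4 and APC7 of the anaphase-promoting complex. The partners' median log2 ratio was 0.05, with a range from −0.46 to 0.39, beside a median of 0.03 over the autosomal arms. Each selected gene was chosen for its low ratio, so its gap to such partners largely follows from the choice. The clathrin light chain gene Clc had 184 RPKM in control and 196 after MSL2 RNAi, beside 170 and 110 for Chc. SNRPG, the X-linked gene of the Sm ring of splicing particles, had 91.0 and 54.7 RPKM, while the other Sm genes listed, SmB, SmD1, SmD2, SmD3, SmE and SmF, had log2 ratios from 0.05 to 0.29. Arp2 stood at −0.59 beside −0.17 to 0.28 for 6 other subunit genes of its complex. In respiratory complex III the partners spread more widely, from UQCR-11 at −0.46 and ox at −0.44 to UQCR-C1 at 0.39.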

How the data were processed

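Messenger RNA of SL2 cells was sequenced, 1 library per group. The submitters' processing notes name Bowtie and the dm3 build; the counting tool, annotation release and strand setting were not stated there or elsewhere in these sources. The authors deposited a whole-number read count for each transcript, and isoforms can share reads. The deposited RPKM values equal count over transcript length and a library total. Control counts sum to 139678971 over transcripts, above that total of 68036170, and what the total counts is not stated. Although counts are present, 1 library per group allows no count model, so genes were chosen by size. Symbols and X-linkage came from a Release 6 plus ISO1 MT table, with 13783 genes found by locus tag, 742 by a synonym and 614 not found. Of the 162 genes 14 matched by synonym and keep their older identifier. Intervals are exact Clopper-Pearson limits on reads, at 95%. The selection step was tested on simulated data with counting error only and no spread between cultures, which checks the step and not the genes chosen. The genes named were the 15 lowest after MSL2 RNAi with a mean of at least 5 RPKM, up to 5 per role list, the 8 most abundant, the 3 highest after CLAMP RNAi, those next to each limit and the longest run of neighbours; further names were chosen after values were seen. Members and lists were chosen with earlier results of these data known. Promoter and protein sequences were not analysed here. Alternatives changed pseudocount, level limit, transcript, scaling, fold and matching. Python 3.11.15, pandas 2.3.3 and SciPy 1.17.1 were used.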

Additional observations from a re-analysis of the deposited data

How the results depend on the processing

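The number of selected genes was 162 as reported and between 112 (pseudocount of 1) and 198 (no level limit) under the alternatives that kept the 1.5-fold limit. With a 2-fold limit in both ratios it was 16, with median log2 ratios of −1.11 after MSL2 RNAi and −0.41 after CLAMP RNAi, and 10 of the 16 were among the 162. Scaling to an autosomal median of 0 kept all 162, which made up 83.9% of the genes it selected, and moved the median CLAMP ratio from −0.18 to −0.13; upper-quartile scaling gave 138 genes, 136 of them shared, and −0.15. With a pseudocount of 1, 109 of 112 genes were shared. The longest transcript per gene gave 161 genes, all shared. Of 53 genes named by the rule, 12 moved beyond their counting interval with a pseudocount of 1. None changed sign under any alternative run, which says little because these genes were chosen for low ratios. Changes of pseudocount, level limit, fold and matching cannot change the sign of a ratio. The promoter motif alternatives were not run. No paired analysis was possible because each messenger RNA group has 1 library. Depth limits the genes with few reads: 3 had under 100 in control, and for 73 counting error alone could place the gene on either side of the 1.5-fold limit.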
